A study of Mus musculus with 8 samples.

Results

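Feedback and target genes of interleukin-3 (IL-3) and the transcription factor STAT5 were followed in mouse hematopoietic cells with and without the endocytic adaptor PICALM. The 10 genes were Cish, Socs1, Socs2, Socs3, Pim1, Bcl2l1, Osm, Stat5a, Stat5b and Grb14. All probe sets whose only gene symbol was one of these were taken, which gave 18 of 22626 probe sets for 9 of the 10 genes (of 12393 genes on the array). No probe set was named Osm, so Osm was not analysed here.

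IL-3 is a growth factor of early myeloid cells. It binds a receptor made of the alpha chain Il3ra and a beta chain, such as the shared chain Csf2rb, which holds the kinase JAK2. JAK2 phosphorylates the transcription factors STAT5A and STAT5B, which pair, enter the nucleus and bind the short palindrome TTCNNNGAA near their target genes. Among those targets are brakes on the same receptor (CIS, encoded by Cish, and the suppressors of cytokine signaling encoded by Socs1, Socs2 and Socs3), and genes of survival and growth such as Pim1, Bcl2l1 and Osm. Stat5a and Stat5b encode STAT5 itself, and Grb14 a receptor adaptor.

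The arrays held PICALM-rescued and Picalm-knockout cells, 4 of each, as pairs from the cell lines PICALM6A, PICALM6B, PICALM6D and PICALM84, here called 6A, 6B, 6D and 84. PICALM-rescued cells carried a human PICALM cDNA in the retroviral vector MSCVneo, and Picalm-knockout cells carried the empty MSCVneo vector. Both were selected with G418. All cells came from the liver of E14 embryos with the mutant allele Picalmfit1-5R (background strain B6(Cg)-TyrC-2J/J), were immortalized with a retrovirus for the fusion oncoprotein MLL-ENL, and grew in 10% FBS with IL-3 at 5 ng/ml and stem cell factor, the ligand of the receptor Kit, at 50 ng/ml. IL-3 was therefore present in every sample, and no sample without it was compared. The rescue gene was driven by a viral promoter, and each line is an immortalized line of its own, so the 4 pairs stand for 4 lines and not for primary progenitors. Levels are log2 values after RMA, on which a difference of 1 is a doubling, and the level of 1 probe set cannot be set against that of another. Where the values of 4 arrays are listed, they are in the order 6A, 6B, 6D, 84.

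The array medians lay between 7.32 and 7.35. No probe set was named Picalm, so its level could not serve as a check of the labels. The 9 progenitor markers averaged 10.69 to 11.01 in rescued cells and 10.81 to 11.21 in knockout cells. Since levels of different probe sets cannot be set against each other, this describes the cells and does not check their type. Line 84 stood apart from the other lines at many probe sets (4871 higher and 4310 lower), and the values that shifted most when it was left out are also given without it.

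The STAT5 motif was looked for in the promoter windows of these genes, 300 bases from 250 before to 50 after each RefSeq transcript start. RefSeq windows on the build GRCm38.p6 were found for 8 of the genes (13 windows), and Socs2 and Osm had none in the table. The letters TTCNNNGAA, which read the same on both strands, occurred in 2726 of 32851 windows of this length (8.3%), and 2 or more times in 150 (0.457%). Cish had 2 matches, starting at position 1 (the first transcribed base) and position 12, and Socs3 had 1, starting 154 bases before the start. The other 11 windows, those of Socs1, Pim1, Bcl2l1, Stat5a, Stat5b and Grb14, held no match. The windows of Cish (chr9:107296409-107296708, plus strand), Socs3 (chr11:117969317-117969616, minus strand) and Grb14 (chr2:65022717-65023016, minus strand) are shown to compare windows that hold the motif, in capitals, with the window of the gene that differed most between rescued and knockout cells:

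Cish: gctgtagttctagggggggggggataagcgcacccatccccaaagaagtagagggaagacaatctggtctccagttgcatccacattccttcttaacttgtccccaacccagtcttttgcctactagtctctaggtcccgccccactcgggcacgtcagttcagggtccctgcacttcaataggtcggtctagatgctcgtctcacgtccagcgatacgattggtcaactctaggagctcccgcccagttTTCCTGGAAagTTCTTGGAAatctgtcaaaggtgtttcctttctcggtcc

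Socs3: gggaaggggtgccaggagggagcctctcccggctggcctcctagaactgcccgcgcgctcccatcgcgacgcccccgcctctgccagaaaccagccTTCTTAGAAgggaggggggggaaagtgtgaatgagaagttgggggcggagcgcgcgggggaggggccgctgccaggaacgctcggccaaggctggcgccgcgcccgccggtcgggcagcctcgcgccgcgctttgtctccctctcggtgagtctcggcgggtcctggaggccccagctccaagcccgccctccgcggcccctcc

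Grb14: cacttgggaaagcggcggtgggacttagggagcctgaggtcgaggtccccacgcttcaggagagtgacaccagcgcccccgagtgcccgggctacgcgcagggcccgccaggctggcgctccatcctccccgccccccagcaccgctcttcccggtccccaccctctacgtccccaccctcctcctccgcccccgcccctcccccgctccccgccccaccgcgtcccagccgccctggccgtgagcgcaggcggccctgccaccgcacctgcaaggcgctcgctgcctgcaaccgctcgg

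A match is a string of letters and was not tested for binding here. Sequence outside these windows was not searched, so a window without a match does not mean that the gene lacks the motif.

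Of the 18 probe sets, 1 was called higher and 0 were called lower in rescued cells, set against knockout cells. The call was Grb14, at 1.61-fold. The fit was limma with the line as a block, p-values were adjusted over all 22626 probe sets (Benjamini-Hochberg), and the threshold was the study's FDR of 12.3%. Over the whole array the same rule called 0.00442% of probe sets higher (1 probe set, Grb14 itself) and 0.0751% lower. Grb14 was among the genes chosen with its result in these arrays already known, so its place in the count is no independent evidence. The other 17 probe sets differed by at most 0.25 on the log2 scale, with a lowest adjusted p of 0.318. At an unadjusted p under 0.05 there were 3 (Socs1, 1 of the 2 Socs2 probe sets and Grb14), against 12.5% of all probe sets. The median difference of the 18 was -0.025, with 8 positive and 10 negative, and that of all probe sets was 0.003. The median size of the difference was 0.10 for the 18 and 0.06 for all probe sets.

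**Figure D1:**
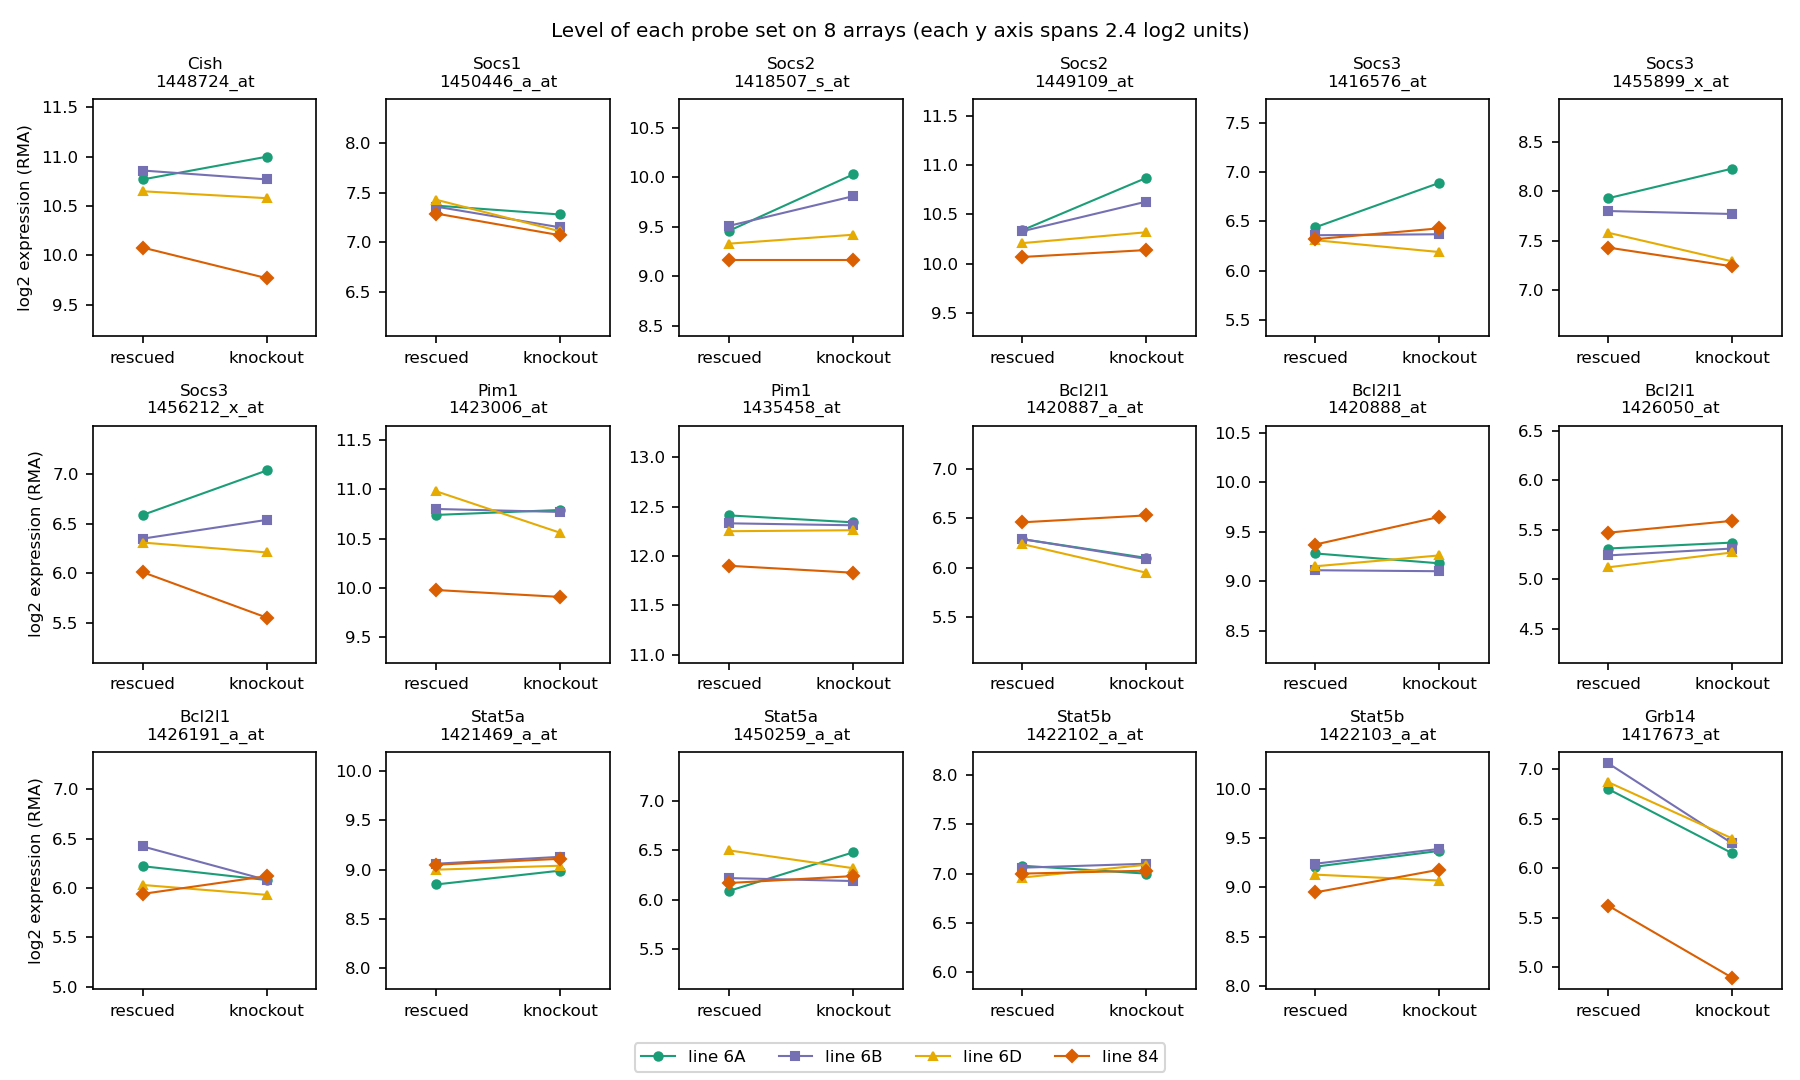
Level of each of the 18 probe sets (y axis, log2 after RMA) in rescued and in knockout cells (x axis), with a line joining the 2 arrays of a cell line. Grb14 slopes the same way in all 4 lines, by 0.56 to 0.81, and line 84 (diamonds) lies below the other lines for Cish, both Pim1 probe sets and Grb14.

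Cish encodes CIS, which binds the activated receptor and competes with STAT5 for its docking sites. Its level was 10.77, 10.86, 10.65 and 10.08 in rescued cells, and 11.00, 10.77, 10.58 and 9.77 in knockout cells. Both groups spanned about the same levels, line 84 was lowest in each, and 3 of the 4 lines were higher in rescued cells. The difference was 0.06 ± 0.09 (SE, n = 4 pairs; 95% interval -0.16 to 0.28; adjusted p = 0.798, limma with the block), and without line 84 it was -0.02.

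Socs1 encodes an inhibitor that binds JAK kinases directly. It was the 1 probe set of the 18 whose groups did not overlap, where 3.45% of all probe sets did not. The levels were 7.37, 7.36, 7.43 and 7.29 in rescued cells, and 7.28, 7.15, 7.11 and 7.07 in knockout cells. All 4 rescued arrays lay above all 4 knockout arrays, by a narrow margin. The difference was 0.21 ± 0.05 (SE, n = 4 pairs; 95% interval 0.08 to 0.34), a 1.15-fold higher level, and it did not pass after adjustment (adjusted p = 0.318, limma). An exact permutation test of 4 against 4 arrays, which sets the pairing aside, gave 0.0286, two-sided and unadjusted. That is the smallest p of this test and follows whenever the groups do not overlap, so it only restates the separation.

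Socs2, a target of STAT5 that restrains growth hormone signaling, had the opposite direction on both of its probe sets. On the first (1449109_at) the levels were 10.34, 10.33, 10.21 and 10.07 in rescued cells, and 10.87, 10.63, 10.32 and 10.14 in knockout cells. On the second (1418507_s_at, whose name marks probes shared by several transcripts) they were 9.46, 9.51, 9.33 and 9.16 in rescued cells, and 10.03, 9.81, 9.42 and 9.16 in knockout cells. The 2 probe sets kept the same order of lines: line 6A had the largest difference (-0.53 and -0.57), then 6B (-0.30 on both), 6D (-0.11 and -0.10) and 84 (-0.07 and -0.01). The groups overlapped on both. The fitted differences were -0.25 ± 0.09 (SE, n = 4 pairs; adjusted p = 0.356) and -0.24 ± 0.10 (adjusted p = 0.403, limma), and neither passed. Probe sets of 1 gene share their transcript and are not 2 separate observations.

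Socs3 encodes an inhibitor best known for braking receptors of the IL-6 and G-CSF type. Its 3 probe sets gave no common direction, with differences of -0.12 ± 0.10, 0.05 ± 0.10 and -0.02 ± 0.15 (SE, n = 4 pairs; adjusted p of 0.636 to 0.968, limma), and of -0.12, 0.00 and -0.18 without line 84. On the probe set 1455899_x_at the levels were 7.93, 7.80, 7.58 and 7.43 in rescued cells, and 8.23, 7.77, 7.29 and 7.24 in knockout cells. Line 6A was lower in rescued cells on all 3 probe sets (by 0.45, 0.31 and 0.45 on the log2 scale), and line 6D was higher on all 3 (by 0.11, 0.29 and 0.11). The names of 2 of the 3 end in x_at, which marks probes that can also match other sequences.

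Pim1 encodes a serine/threonine kinase of survival and growth, and is a known target of STAT5. On 1435458_at the levels were 12.41, 12.33, 12.25 and 11.90 in rescued cells, and 12.34, 12.31, 12.26 and 11.83 in knockout cells. The 2 arrays of each line lay within 0.08 of each other, and line 84 was lowest in both groups. The difference was 0.04 ± 0.04 (SE, n = 4 pairs; 95% interval -0.06 to 0.15; adjusted p = 0.700, limma). The other probe set, 1423006_at, differed by 0.12 ± 0.08 (adjusted p = 0.580), of which line 6D made up most, at 10.98 in rescued and 10.56 in knockout cells.

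Bcl2l1, which encodes the survival protein BCL-XL and related isoforms, was read by 4 probe sets, and these did not run the same way. The differences were 0.15 ± 0.07, 0.11 ± 0.09, -0.07 ± 0.07 and -0.10 ± 0.04 (SE, n = 4 pairs; adjusted p of 0.416 to 0.707, limma). Of these only 1426050_at had the same sign in all 4 lines, at 5.31, 5.24, 5.12 and 5.47 in rescued cells, and 5.37, 5.31, 5.27 and 5.59 in knockout cells. The gap within a line was at most 0.15, and the groups overlapped. The other 3 probe sets shifted when line 84 was left out. Without it 1420888_at differed by 0.00 (adjusted p = 0.995), 1420887_a_at differed by 0.23 (adjusted p = 0.236) and 1426191_a_at by 0.20 (adjusted p = 0.313), the last 2 higher in rescued cells of all 3 remaining lines. Without line 6B, 1426191_a_at differed by 0.03 (adjusted p = 0.939).

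The genes of STAT5 itself differed by at most 0.12 in size on any of their 4 probe sets. Stat5a was at 8.85, 9.06, 9.0 and 9.05 in rescued cells, and at 8.99, 9.13, 9.04 and 9.11 in knockout cells on 1421469_a_at. Each line was slightly lower in rescued cells, and the difference was -0.08 ± 0.04 (SE, n = 4 pairs; 95% interval -0.18 to 0.03; adjusted p = 0.487, limma). The other Stat5a probe set differed by -0.06 ± 0.10. Stat5b was at 9.21, 9.24, 9.13 and 8.95 in rescued cells, and at 9.37, 9.39, 9.07 and 9.18 in knockout cells on 1422103_a_at, a difference of -0.12 ± 0.06 (95% interval -0.27 to 0.03; adjusted p = 0.473). Its other probe set differed by -0.03 ± 0.05. STAT5 acts after phosphorylation, which arrays do not measure.

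Grb14 encodes an adaptor of the Grb7, Grb10 and Grb14 family, best known for binding the activated insulin receptor and inhibiting its kinase. Its level was 6.80, 7.06, 6.87 and 5.62 in rescued cells, and 6.15, 6.25, 6.30 and 4.89 in knockout cells. Every line was higher in rescued cells, by 0.64, 0.81, 0.56 and 0.73, while the groups overlapped because both arrays of line 84 lay below all the others. The difference was 0.69 ± 0.05 (SE, n = 4 pairs; 95% interval 0.55 to 0.82), or 1.61-fold, with an adjusted p of 0.0610 in limma with the line as a block. There were 186 probe sets (0.822%) with a larger difference of either sign, none of which was called higher.

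The Grb14 call depended on the pairing and on the number of lines. With the line left out of the model the same difference had an SE of 0.41 and an adjusted p of 0.969. With the block and 1 line left out, the difference was 0.64 to 0.73 and the adjusted p was 0.254 without 6A, 0.471 without 6B, 0.199 without 6D and 0.0961 without 84, so that the call was kept only without line 84. The Grb14 level lay at the 37.2 percentile of all probe sets, and a filter on the dimmest 40% removed it.

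**Figure D2:**
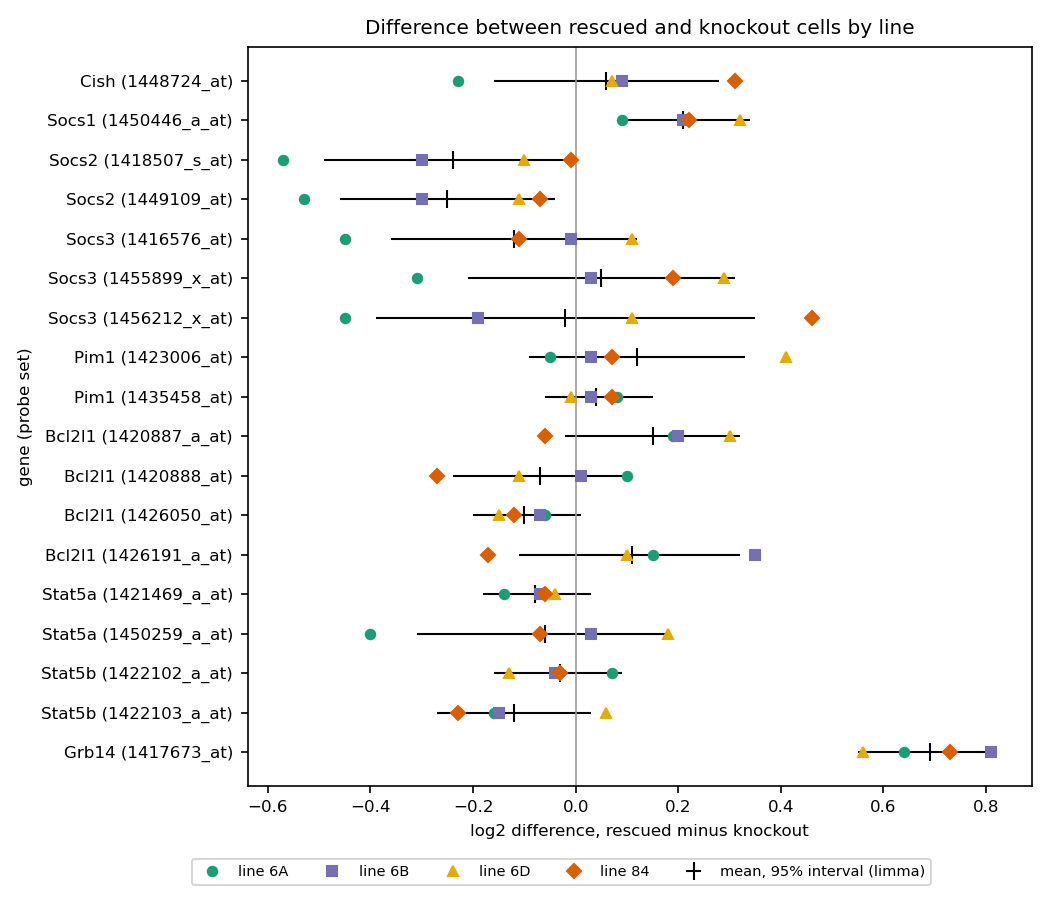
Rescued minus knockout level (x axis, log2) for each of the 18 probe sets, with a symbol per cell line and the limma mean with its 95% interval in black. Grb14 lies at 0.56 to 0.81 in all 4 lines, Socs1 at 0.09 to 0.32, and both Socs2 probe sets at or below -0.01.

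A rescued level higher in all 4 lines was found for 2 of the 18 probe sets (Socs1 and Grb14), against 12.0% of all probe sets. A rescued level lower in all 4 lines was found for 4 (both of Socs2, and 1 each of Bcl2l1 and Stat5a), against 11.8%. For Socs2 (1418507_s_at) the gap in line 84 was only -0.01. Over lines 6A, 6B and 6D alone, 4 were higher (Socs1, Grb14 and 2 of Bcl2l1) and 4 lower, which is 22.2% each, where 19.9% of all probe sets were higher and 18.4% lower.

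Several of these genes differed more between cell lines than between rescued and knockout cells. Line 84 was set against the mean of the other 3 lines in the same fit, a contrast chosen after the values were seen. It holds 1 line, so its p measures the spread within the lines and not how widely lines vary. Lower in line 84 were 8 of the 18 probe sets: Cish, both of Socs2, 2 of the 3 of Socs3, both of Pim1, and Grb14. This compares with 19.0% of all probe sets. Higher in line 84 were 3, all of Bcl2l1, against 21.5%.

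Cish averaged 9.93 in line 84 and 10.77 in the other lines, whose arrays spanned 10.58 to 11.00 (difference -0.84 ± 0.10 SE, adjusted p = 0.00471, limma). Pim1 was lower by 0.83 ± 0.10 and 0.45 ± 0.05 on its 2 probe sets (adjusted p = 0.00416 and 0.00348). Grb14 averaged 5.25 in line 84 and 6.57 in the others, a difference of -1.32 ± 0.06 (adjusted p = 0.000321), which was larger in size than its difference between rescued and knockout cells.

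Socs2 was lower in line 84 by 0.43 ± 0.11 and 0.35 ± 0.10 (adjusted p = 0.0405 and 0.0499), and the 2 Socs3 probe sets by 0.43 ± 0.12 and 0.73 ± 0.17 (adjusted p = 0.0454 and 0.0293). The Socs2 ranges of line 84 lay at 9.16 and at 10.07 to 10.14, below every array of the other lines on both probe sets. Bcl2l1 ran the other way on 3 of its 4 probe sets, with differences of 0.33 ± 0.08, 0.33 ± 0.08 and 0.26 ± 0.05 (adjusted p of 0.0152 to 0.0331). Socs1 (-0.10 ± 0.06, adjusted p = 0.264) and all Stat5a and Stat5b probe sets did not pass, with adjusted p of 0.133 to 0.726 for the STAT5 genes.

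**Figure D3:**
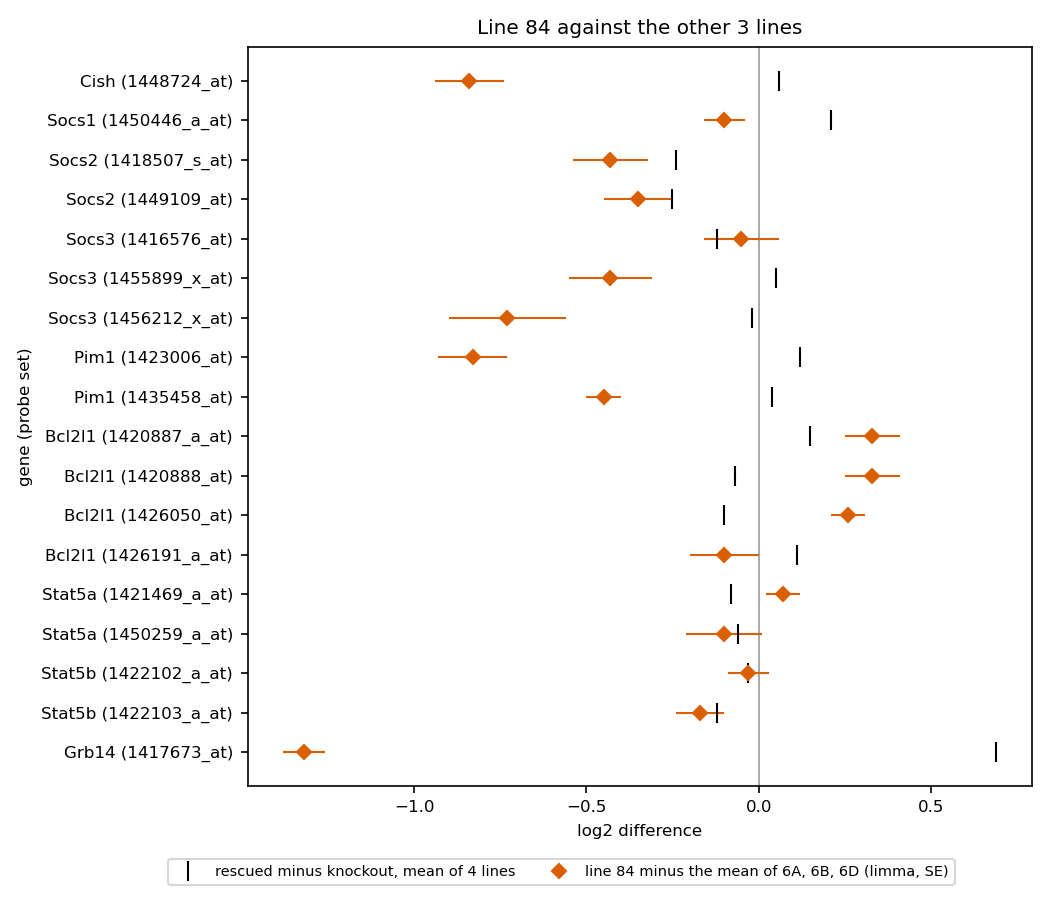
Line 84 minus the mean of lines 6A, 6B and 6D (diamonds, log2, with the SE of the limma fit), beside the mean difference between PICALM-rescued and Picalm-knockout cells (black ticks) for each of the 18 probe sets. Cish (-0.84), Pim1 (-0.83 and -0.45) and Grb14 (-1.32) lie far to the left, while 3 Bcl2l1 probe sets lie at 0.26 to 0.33.

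Other readouts set line 84 apart as well. The mean of 13 interferon response genes was 7.19 in rescued and 9.41 in knockout cells of line 84, against 6.04 to 6.22 in rescued and 5.97 to 6.17 in knockout cells of the other lines. The mean of 9 mast cell and basophil markers was 8.92 in rescued and 7.55 in knockout cells of line 84, against 6.13 to 7.01 in rescued and 5.95 to 6.14 in knockout cells of the others. Of the 10 receptor and JAK genes, 3 were lower and 4 higher in line 84, where 19.0% of all probe sets were lower and 21.5% higher. Csf2ra, the alpha chain of the GM-CSF receptor, was lower in line 84 by 1.61 ± 0.29 (adjusted p = 0.0138), and Csf2rb by 0.44 ± 0.07 (adjusted p = 0.0119). Il3ra, named after its values were seen, was lower by 1.0 ± 0.15 (adjusted p = 0.00795). Higher in line 84 were Kit (1.17 ± 0.10, adjusted p = 0.00161), Il5ra (0.85 ± 0.08, adjusted p = 0.00254), Jak2 (0.37 ± 0.05, adjusted p = 0.00500) and Jak3 (0.22 ± 0.09, adjusted p = 0.119), of which all but Jak2 were also named after their values were seen. Their part in the levels of the STAT5 targets was not tested.

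Around these genes, 8 lists of the pathway held 76 genes, of which 73 were measured, each by its probe set of the highest mean level. None was called higher and none lower in rescued cells by limma with the block, against 0.00442% and 0.0751% of all probe sets, and 16 had an unadjusted p under 0.05, against 12.5% of all probe sets. The lowest adjusted p was 0.191. In all 4 lines 18 were higher (24.7%) and 7 lower (9.59%), where 12.0% and 11.8% of all probe sets were, and the median difference was 0.02. Over lines 6A, 6B and 6D alone, 22 were higher (30.1%) and 15 lower (20.5%), against 19.9% and 18.4%.

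The receptors and JAK kinases had a median difference of 0.15, and 5 of 10 were higher in rescued cells of all 4 lines. Jak2, the kinase of the IL-3 receptor, averaged 9.36 ± 0.20 in rescued and 9.07 ± 0.18 in knockout cells (SD, n = 4), with a nearly constant gap of 0.27 to 0.32 over the lines, and was the gene with that lowest adjusted p of 0.191. Csf2rb, the shared beta chain of the IL-3 receptor, averaged 11.02 ± 0.19 in rescued and 10.73 ± 0.31 in knockout cells (adjusted p = 0.310). Csf2rb2, a related beta chain gene named after its values were seen, differed by 0.57 ± 0.28 (SE, adjusted p = 0.460, limma). It was higher in rescued cells of all 4 lines, by 1.70 in line 84 and by 0.19 on average in the others. Csf2ra averaged 10.75 ± 0.47 in rescued and 10.16 ± 1.14 in knockout cells, and its gap of 1.60 in line 84 stood against 0.15 to 0.39 in the other lines, a mean of 0.25 (adjusted p = 0.416).

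Of the 4 other STAT genes measured, Stat3 had the same direction in all lines, at 10.15 ± 0.12 in rescued and 9.91 ± 0.07 in knockout cells (SD, n = 4; adjusted p = 0.328, limma). Its groups did not overlap, nor did those of Shc1 and Bid from the lists below, where 3.45% of all probe sets did not. The 4 other SOCS genes had a median difference of -0.01, and none had the same direction in all lines. Among 12 other negative regulators 6 were higher in all 4 lines and 0 lower. They include Cbl, a ubiquitin ligase of activated receptors (0.25 ± 0.07 SE, adjusted p = 0.332), Dok2, an adaptor that dampens Ras signaling (0.19 ± 0.06, adjusted p = 0.342), and Ptpn1, a phosphatase of JAK2 (0.17 ± 0.07, adjusted p = 0.419). Without line 84 the difference of Ptpn1 was 0.09.

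Of 15 other targets of STAT5 or IL-3, 2 were higher in every line and 4 lower in every line, and the D-type cyclins, which drive entry into S phase, were split. Ccnd2 averaged 11.33 ± 0.56 in rescued and 11.83 ± 0.63 in knockout cells (adjusted p = 0.228), and Ccnd1 8.39 ± 0.87 in rescued and 9.11 ± 1.19 in knockout cells (adjusted p = 0.308). Ccnd3 averaged 11.43 ± 0.12 in rescued and 11.25 ± 0.13 in knockout cells (SD, n = 4; adjusted p = 0.318, limma). Of the 11 other BCL2 family genes, 2 were higher and 3 lower in every line. The 3 were Pmaip1, which encodes the death-promoting NOXA (-0.31 ± 0.06 SE, adjusted p = 0.249), the survival gene Bcl2 (-0.36 ± 0.11, adjusted p = 0.342), which is also in the list of targets, and Bid (-0.13 ± 0.04, adjusted p = 0.359). Without line 84 the difference of Bcl2 was -0.22.

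The 13 other receptor adaptors had a median difference of 0.00. Shc1, which links receptors to Ras, was higher in all 4 lines (0.18 ± 0.05 SE, adjusted p = 0.328, limma), and Ptpn11, which encodes the phosphatase SHP2, was lower in all 4 (-0.13 ± 0.05, adjusted p = 0.406). Grb10 and Grb7, the relatives of Grb14, were named for that kinship and had mixed directions, at 0.24 and -0.21. Grb10 differed by 1.22 in line 84 and by -0.09 on average in the other lines, so its sign rests on line 84, and Grb7 differed by -0.33 without it. Of the 6 genes of the family of Osm and its receptors, 1 had the same direction in all lines, the receptor chain Il6ra (0.18 ± 0.09, adjusted p = 0.485), which differed by 0.06 without line 84.

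**Figure D4:**
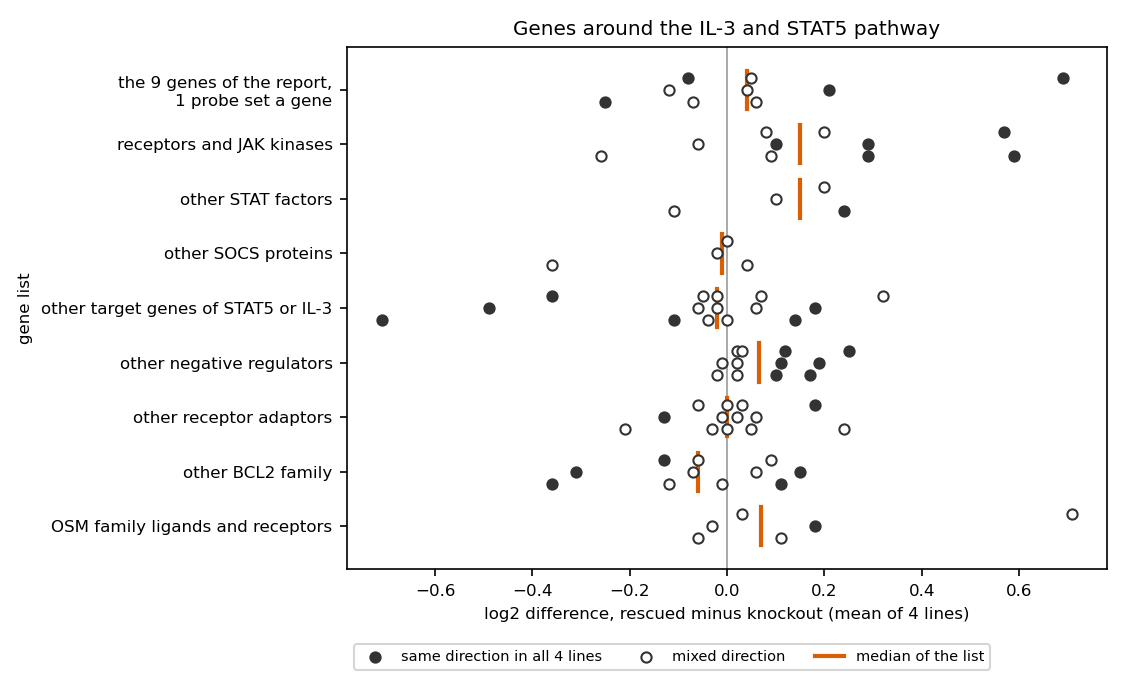
Rescued minus knockout level (x axis, log2, mean of 4 lines) for each gene of the 8 pathway lists and for the 9 genes described first, with 1 probe set a gene and the list median in orange. The receptors and JAK kinases have a median of 0.15 and the target genes one of -0.02, and Grb14 is the point at 0.69 in the top row.

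Markers of cell maturation also differed between rescued and knockout cells, although none passed the threshold. The mean of 8 neutrophil granule genes was 10.26 to 11.63 in rescued cells and 8.44 to 9.78 in knockout cells. It was higher in rescued cells of every line (by 2.00, 0.95, 0.48 and 1.96 in 6A, 6B, 6D and 84). Of the 8 genes, 6 were higher in all 4 lines, where 12.0% of all probe sets were higher and 11.8% lower. The marker lists were chosen with earlier results of these arrays known, so such counts are no independent evidence. Lcn2, which encodes a granule protein, averaged 11.47 ± 0.71 in rescued and 9.63 ± 0.73 in knockout cells (SD, n = 4; adjusted p = 0.260, limma). The mean of the 9 mast cell and basophil markers was also higher in rescued cells of every line (by 0.91, 0.18, 0.53 and 1.37), with 5 higher and 1 lower in all 4 lines. Its median difference was 0.77, and 0.33 without line 84. Cpa3, a mast cell protease gene, averaged 8.70 ± 2.31 in rescued and 6.78 ± 2.22 in knockout cells (adjusted p = 0.310). The mean of the 9 progenitor genes was lower in rescued cells of every line (differences of -0.11, -0.21, -0.04 and -0.20 in 6A, 6B, 6D and 84). Their median difference was 0.04, with 3 higher in all lines (Ptprc, Spi1 and Gfi1) and 1 lower. That 1, Cd34, averaged 9.76 ± 0.93 in rescued and 11.01 ± 0.77 in knockout cells (adjusted p = 0.261). Cd34 differed by -1.92, -1.62, -0.51 and -0.94 in 6A, 6B, 6D and 84. In 6A and 6D the lower mean of the progenitor genes rested on Cd34 alone. In bulk samples, fewer cells of a type and less RNA per cell cannot be told apart. The part of these markers in the values of Grb14, Socs1 and Socs2 was not tested.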

How the data were processed

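Expression was measured on 8 Affymetrix mouse arrays, 4 PICALM-rescued and 4 Picalm-knockout. The methods name the full mouse array and the sample titles its A version, which the 22690 probe sets of the table fit. Per the methods the authors used RMA, and the deposited log2 values were taken as given, after 64 control probe sets were left out. The table pairs probe sets with platform gene symbols; 20380 had 1 symbol, 691 several and 1555 none.

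Differences were fitted with limma 3.58.1 (R 4.3.3; tables in Python 3.11.15), two-sided, with Benjamini-Hochberg adjustment and the 12.3% FDR that the methods give for SAM. The methods name no pairing. The line was a block because both of its arrays come from the same cell line. The correlation of their deviations from the group means was 0.623 to 0.811, and all 8 arrays correlated best with their own line. The block leaves 3 residual degrees of freedom. Arrays give no count of molecules, and the precision is limited by the number of arrays. With the block, the p-values for rescued against knockout cells measure how their gap varies over these lines, not the spread between lines. Limma was run on simulated data with known shifts, and the share of shifts it found is not reported here. Promoter sequences are from RefSeq (GRCm38.p6).

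The genes and lists were chosen with earlier results of these data known. Named were all probe sets of the 10 genes and, from each list, up to 3 genes with the smallest p among those with the same direction in all 4 lines; exceptions are marked in the text. Of the marker lists, those of progenitors, of neutrophil granules, and of mast cells and basophils are given. The lists left out had median differences from -0.03 (megakaryocytes) to 1.09 (eosinophils, 0.28 without line 84), and no gene of theirs was called.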

Additional observations from a re-analysis of the deposited data

Results flagged for a closer look

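Of 36 groups of 4 arrays (18 probe sets in rescued and in knockout cells), 2 held an array far from the other 3 by Dixon's test, which chance does in about 1 in 20 groups. Both were the knockout array of line 84. Pim1 (1435458_at) was at 11.83 there, against 12.26 to 12.34 in the other knockout arrays. Grb14 was at 4.89, against 6.15 to 6.30. The rescued arrays of line 84 were also lowest for both, at 11.90 for Pim1 and 5.62 for Grb14, so the differences within line 84 were 0.07 and 0.73, inside the range of the other lines.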

How the results depend on the processing

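With the line as a block, 1 probe set of the array (Grb14) was called higher in rescued cells and 17 lower. With no replicate block the counts were 0 and 0 at the same threshold (1074 probe sets at an unadjusted p under 0.05), and Grb14 was not called. Quantile normalization and median centring left 1 and 17. SAM paired by line called 122 higher and 470 lower, array weights 25 and 92, a variance trend with robust settings 19 and 81, and Grb14 was called in each of these. An adjusted p under 0.05 left 0 and 4, and leaving out the dimmest 40% left 0 and 21, both without Grb14. The methods' t-test gave 617 and 562 at p under 0.05, with Socs1 as its only call among the 18, and 0 and 0 after Benjamini-Hochberg.

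With the block and 1 line left out the counts were 0 to 8 higher and 0 to 42 lower, and Grb14 was the only call among the 18, made without line 84 and lost without any other line (0 to 1). With 1 array left out and no block they were 0 and 0 each time. The Grb14 difference was 0.35 to 1.01 over 21 settings and was called in 6. Both ends came from fits with no block and 1 array of line 84 left out. These gave 0.35 without its knockout array and 1.01 without its rescued array. With the block the difference was 0.64 to 0.73. The cause of these shifts was not tested. Of 389 values of the 18 probe sets under alternatives, 365 kept their sign. Part of this count was fixed in advance. The fit of all arrays with no block, SAM, the t-test and the stricter threshold use the same mean difference, so no sign could change there. None of the 18 was called lower in rescued cells under any setting. Counts and means over lines 6A, 6B and 6D were added after the data were seen. With 4 pairs an exact sign-change test cannot go below 0.125.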
